A study of Homo sapiens with 6 samples.

Results

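The UBE2 genes encode the E2 ubiquitin-conjugating enzymes and their close variants, and the members were taken as every protein-coding gene of the GENCODE annotation whose symbol starts with UBE2 and that has a counted transcript. This gave 37 genes, each counted on 1 transcript, among 19032 protein-coding transcription units (TUs) and 37339 matched TUs of all kinds, and they lay on 21 chromosomes. Of the 37, 28 passed the level thresholds (a PRO-seq level over 10 TPM with an RNA-seq level over 1 TPM) and entered the test, and the other 9 are described near the end.

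The libraries came from untreated K562 cells, a chronic myelogenous leukemia line, grown in RPMI-1640 medium with fetal bovine serum. Total RNA-seq after rRNA depletion (4 libraries) measured steady-state RNA. PRO-seq (2 libraries), which sequences the nascent RNA held by engaged polymerases, stood for transcription. Its level, as the paper states, depends on the rate of elongation as well as on that of transcription. All 6 libraries came from cells of a single flask, so their spread, and the p-values resting on it, covers libraries and not separate cultures. No condition, genotype or time was compared, and the comparison made by the design is that of the assays, as the ratio of RNA-seq TPM to PRO-seq TPM, a unit-less estimate of RNA half-life. That estimate assumes a steady state, and neither this nor the elongation rate was tested here. The paper built its main analyses on earlier published libraries instead, whose half-life estimates it found less variable and nearer to published ones. TPM is reads per unit length scaled to the same total in every library, and levels are given in TPM throughout. In bulk samples, fewer cells that express a gene and less RNA per cell cannot be told apart.

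Ubiquitin is activated by an E1 enzyme, passed to a cysteine of an E2, and joined to a substrate with the help of an E3 ligase. The E2 often sets what kind of chain is built, through which lysine of ubiquitin successive molecules are linked, and related E2s carry other modifiers such as NEDD8 and ISG15 instead of ubiquitin. Chains linked through lysine 48 mark proteins for the proteasome, whereas those linked through lysine 63 act in signalling and DNA repair. K562 cells are erythroid-like, and maturing red cells remove much of their protein through this system.

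In the canonical coding sequences, 22 of the 37 genes held exactly 1 in-frame run of codons for histidine (CAT or CAC), proline (CCN) and asparagine (AAT or AAC), the tripeptide found close to the catalytic cysteine in most E2s, 1 gene (UBE2S) held more than 1 and 14 held none. In 18 of the 22 the next cysteine codon followed 10 codons after the histidine. Of the 14, 5 (UBE2E1, UBE2E2, UBE2E3, UBE2Q1 and UBE2Q2) held codons for histidine, cysteine (TGT or TGC) and asparagine in frame instead. UBE2V1 and UBE2V2, known to lack the catalytic cysteine, were among the others without it. The sequences printed are the 75 coding bases that start at the tripeptide, or in the UBE2E family at the codons for histidine, cysteine and asparagine. They are given for the UBE2D and UBE2E families, which hold the genes with the largest ratios, and for the close pair UBE2A and UBE2B. They show how alike the coding sequences are. In the UBE2D family they are bases 223 to 297 of the coding sequence, and capitals mark bases that differ from UBE2D3.
UBE2D3: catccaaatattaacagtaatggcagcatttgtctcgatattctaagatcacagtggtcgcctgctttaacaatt
UBE2D2: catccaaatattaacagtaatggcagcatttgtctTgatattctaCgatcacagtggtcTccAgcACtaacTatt
UBE2D1: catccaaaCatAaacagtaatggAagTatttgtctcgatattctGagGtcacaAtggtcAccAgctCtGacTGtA
UBE2D4: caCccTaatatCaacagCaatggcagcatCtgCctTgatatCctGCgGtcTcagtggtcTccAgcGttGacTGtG

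UBE2D2 differed from UBE2D3 at 7 of the 75 bases, UBE2D1 at 14 and UBE2D4 at 19. In the UBE2E family capitals mark bases that differ from UBE2E1, and UBE2E3 differed at 20 bases and UBE2E2 at 15.
UBE2E1: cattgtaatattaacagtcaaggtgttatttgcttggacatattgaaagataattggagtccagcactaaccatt
UBE2E3: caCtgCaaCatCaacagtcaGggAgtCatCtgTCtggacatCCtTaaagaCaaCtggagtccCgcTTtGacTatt
UBE2E2: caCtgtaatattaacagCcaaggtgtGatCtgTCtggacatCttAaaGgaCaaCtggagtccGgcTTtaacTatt

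UBE2A and UBE2B, the homologues of yeast Rad6, differed at 11 bases, marked in UBE2B by capitals.
UBE2A: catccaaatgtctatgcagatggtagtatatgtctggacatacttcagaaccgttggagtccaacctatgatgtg
UBE2B: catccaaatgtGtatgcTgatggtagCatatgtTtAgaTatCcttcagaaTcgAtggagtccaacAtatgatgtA

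The sequences are those of the canonical transcripts in GENCODE, and 8 of the 9 windows lie in the transcript that was counted, UBE2E3 being the exception. At the 75 bases of an RNA-seq read, the share of windows of the counted transcript that also matched elsewhere in the genome was at most 2.09% in the other members, and reached 48.5% in UBE2E3, 21.2% in UBE2S, 16.4% in UBE2L3, 10.8% in UBE2M, 10.5% in UBE2D3 and 5.28% in UBE2V1. Reads from such windows may be lost or split between copies, so the RNA-seq levels of these 6 genes are uncertain to that extent.

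The 28 tested genes differed from each other in RNA level far more than the libraries did. Their RNA-seq level (counts of the 4 libraries summed) ran from 1.72 TPM in UBE2C to 351 TPM in UBE2D3, a ratio of 204, and their PRO-seq level from 10.8 TPM in UBE2L6 to 328 TPM in UBE2S, a ratio of 30.4. The 5 genes with the most RNA (UBE2D3, UBE2L3, UBE2E1, UBE2D2 and UBE2T) held 49.9% of the RNA-seq TPM of all 37. The median RNA-seq level was 50.4 TPM, against 31.2 TPM over the 8733 mRNAs tested, and the median PRO-seq level was 52.7 against 47.5 TPM. Over the 28 genes RNA-seq and PRO-seq TPM had a Spearman rho of 0.702, and over the mRNAs 0.551, as a description across genes that share their libraries.

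**Figure D1:**
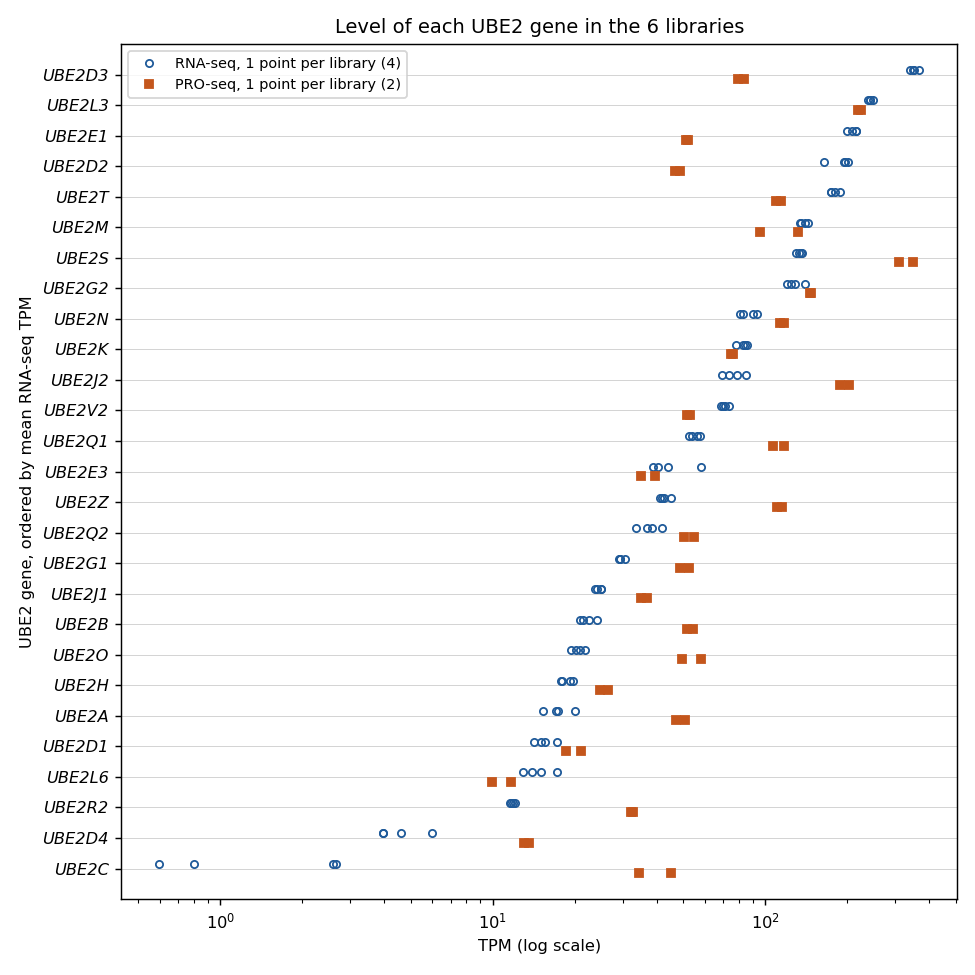
TPM (log scale) of 27 of the 28 tested UBE2 genes in each of the 4 RNA-seq libraries (open circles) and 2 PRO-seq libraries (squares), ordered by mean RNA-seq TPM. The points of 1 gene and assay lie close together in most rows, whereas the RNA-seq points run from below 1 TPM in UBE2C to 368 TPM in UBE2D3.

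Of 28 genes, 15 lay above the median mRNA in relative half-life and 11 below it at an adjusted p under 0.05 (edgeR quasi-likelihood test on the counts, Benjamini-Hochberg over 9931 TUs), and 2, UBE2J1 among them, were not called. Among all mRNAs tested 45.4% lay above and 44.9% below, and among all TUs 40.4% and 50.0%, so the members' shares of 53.6% and 39.3% were near the background and give no result about the list as a whole. The median mRNA had an RNA-seq TPM 0.643 times its PRO-seq TPM, so a gene can lie above it with fewer TPM in RNA-seq than in PRO-seq. A difference over 2-fold was called above for 4 genes (UBE2D3, UBE2E1, UBE2D2 and UBE2T) and below for 1 (UBE2C), against 24.3% and 23.2% of mRNAs. The median log2 relative half-life of the 28 was 0.17, where the median mRNA is 0, and their SD was 1.32 against 1.68 for mRNAs. With no TPM thresholds and at least 1 summed count, the reference fell so that values rose by a median of 0.63, and 20 of 33 genes were then called above and 3 below. UBE2S, UBE2J2, UBE2O, UBE2Z, UBE2A and UBE2D4 kept a negative value there without a call.

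**Figure D2:**
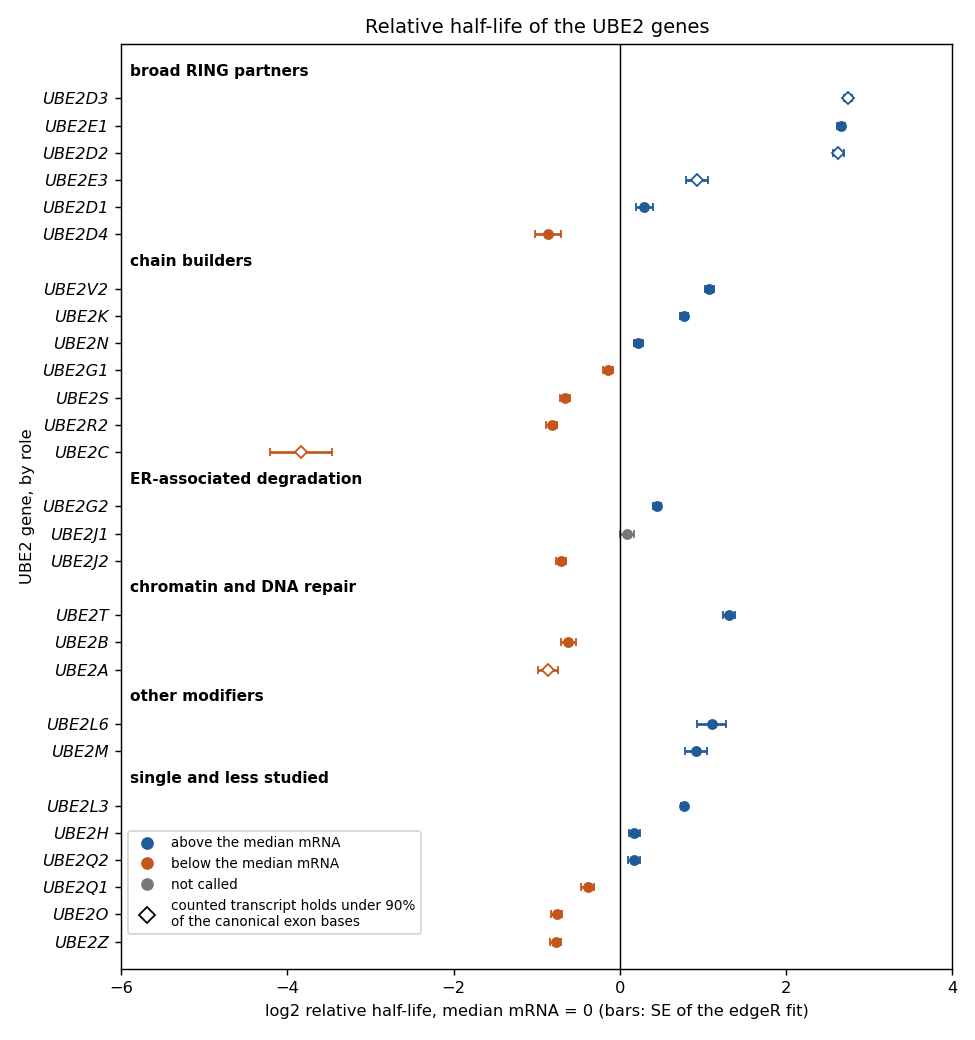
Log2 relative half-life of 27 of the 28 UBE2 genes, grouped by role, with the median mRNA at 0 and bars of 1 SE of the edgeR fit. UBE2D3, UBE2E1 and UBE2D2 stand between 2.63 and 2.74, UBE2C stands at -3.84, and open diamonds mark the 5 genes counted on a transcript with under 90% of the canonical exon bases.

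The largest ratios were those of 3 broad partners of RING ligases, enzymes that work with many E3s and start chains on substrates. UBE2D3 (chr4:102794383-102868895, minus strand on GRCh38, the build of the counting, as are the places of the genes named after it) read 348, 341, 353 and 368 TPM in RNA-seq replicates 1 to 4 and 83.7 and 79.6 TPM in the PRO-seq replicates. Its log2 relative half-life was 2.74 ± 0.050 (SE), 6.70-fold the median mRNA and above that of 94.8% of mRNAs (adjusted p = 1.49e-29, edgeR). Every RNA-seq value of UBE2D3 lay above both PRO-seq values, and it had more RNA per length than any other member.

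UBE2E1 (chr3:23805955-23891640, plus strand), an E2 with an extension before the conserved core, read 199, 215, 209 and 216 TPM in RNA-seq and 51.9 and 51.2 TPM in PRO-seq. UBE2D2 (chr5:139526240-139628434, plus strand) read 194, 197, 202 and 164 TPM and 46.8 and 48.6 TPM. In both genes the RNA-seq values stood far above the PRO-seq values, and RNA-seq replicate 4 was the lowest of UBE2D2. The log2 relative half-life was 2.66 ± 0.050 (SE) for UBE2E1 (adjusted p = 2.63e-29) and 2.63 ± 0.066 (SE) for UBE2D2 (adjusted p = 6.10e-26, edgeR). UBE2D3 and UBE2D2 were counted on transcripts that hold 19.7% and 18.7% of the exon bases of their canonical transcripts, whereas UBE2E1 was counted on its canonical transcript in full. The part of the counted isoform in these values was not tested.

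The other members of the 2 families had less RNA. UBE2D1 (chr10:58335006-58370748, plus strand) read 15.6, 17.2, 14.2 and 15.02 TPM in RNA-seq and 18.6 and 21.1 TPM in PRO-seq, with a log2 relative half-life of 0.30 ± 0.11 (SE) (adjusted p = 0.0111). That call was lost with DESeq2 (adjusted p = 0.0706), without RNA-seq replicate 2 (0.0527) and without PRO-seq replicate 1 (0.134). UBE2D4 (chr7:43926436-43956136, plus strand) read 3.94, 5.996, 3.94 and 4.61 TPM in RNA-seq and 13.1 and 13.6 TPM in PRO-seq, and its log2 relative half-life was -0.87 ± 0.16 (SE) (adjusted p = 9.51e-06). It was the only tested UBE2D or UBE2E gene below the median mRNA, and 49.6% of its PRO-seq interval overlaps genes on the other strand, among them POLR2J4. Whether strand was used in counting is not stated in the sources read, so reads of overlapping genes on the other strand may be mixed in.

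UBE2E3 (chr2:180980360-181063425, plus strand) read 58.2, 38.7, 43.9 and 40.2 TPM in RNA-seq, with replicate 1 above the others, and 39.4 and 35.0 TPM in PRO-seq. The RNA-seq values rest on 77, 54, 39 and 41 counts, since the counted transcript, which the annotation gives no coding sequence, is 340 bases long and holds 17.4% of the canonical exon bases. The log2 relative half-life was 0.93 ± 0.13 (SE) (adjusted p = 1.30e-07). UBE2E2 (chr3:23203098-23591925, plus strand) was under the thresholds, with 3, 5, 1 and 2 counts in RNA-seq and 62 and 78 in PRO-seq, or 0.284, 0.449, 0.141 and 0.246 TPM and 0.619 and 0.764 TPM. Its nascent RNA was thus detected in both libraries at below 1 TPM. Of the 6 tested UBE2D and UBE2E genes, 5 lay above the median mRNA and 1 below, where 45.4% and 44.9% of mRNAs did, with a median of 1.78, but on CPM, without TU length, UBE2D3, UBE2D2, UBE2E3 and UBE2D1 turned negative.

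**Figure D3:**
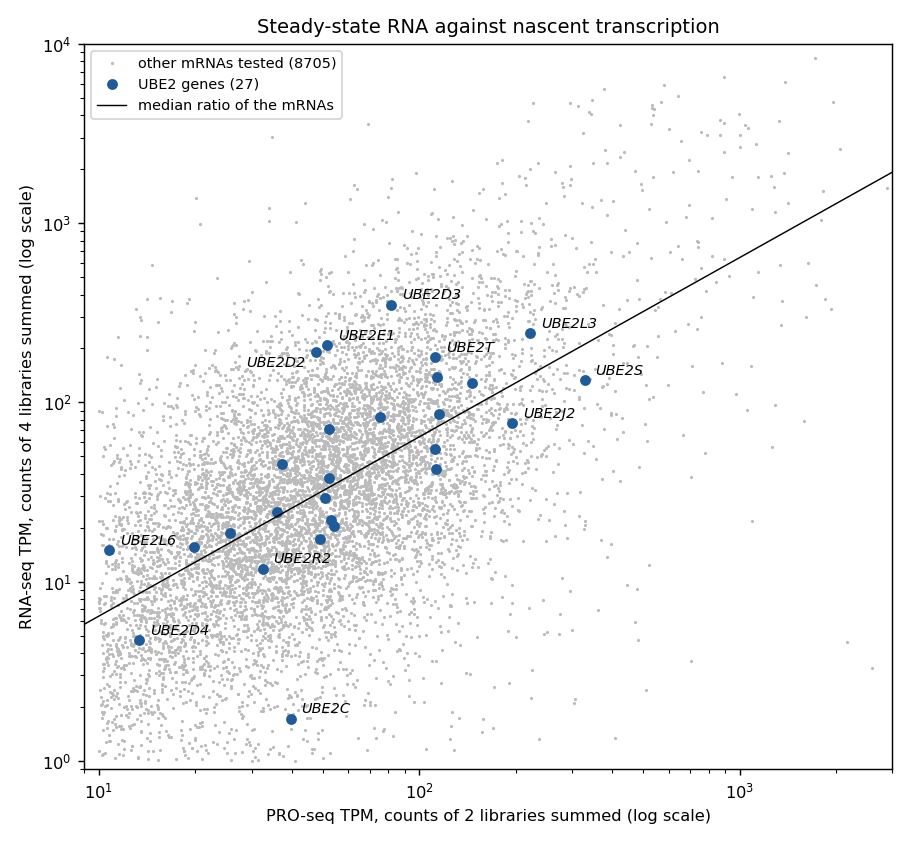
RNA-seq TPM against PRO-seq TPM (both log scales, counts summed over the libraries of an assay) for 27 of the 28 UBE2 genes (blue, some named) and the other 8705 mRNAs tested (grey). The line is the median ratio of the mRNAs, and UBE2C lies furthest under it among the UBE2 genes with 1.72 TPM in RNA-seq at 39.7 TPM in PRO-seq.

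Of the chain-building E2s, 3 of 7 tested genes lay above the median mRNA and 4 below, with a median of -0.14, near the 45.4% and 44.9% of all mRNAs. UBE2K, which links ubiquitin through lysine 48, had 82.9 ± 3.22 TPM in RNA-seq (SD, n = 4), PRO-seq values of 74.9 and 76.05 TPM and a log2 relative half-life of 0.77 ± 0.045 (SE) (adjusted p = 2.39e-16). UBE2N, the E2 of lysine-63 chains, had 86.8 ± 5.88 TPM in RNA-seq (SD, n = 4) and 117 and 113 TPM in PRO-seq. Its log2 relative half-life was 0.22 ± 0.056 (SE) (adjusted p = 4.39e-04), and 50.5% of its exon bases overlap NUDT4 on the other strand. UBE2V2, a variant without the catalytic cysteine that pairs with UBE2N, read 68.9, 70.2, 73.6 and 71.2 TPM in RNA-seq and 51.7 and 52.98 TPM in PRO-seq, with a log2 relative half-life of 1.07 ± 0.053 (SE) (adjusted p = 3.23e-18). All 3 genes had a positive log2 value in each of the 8 ways of joining 1 RNA-seq with 1 PRO-seq library.

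UBE2C and UBE2S work in sequence for the anaphase-promoting complex in mitosis, where UBE2C starts chains on substrates and UBE2S extends them through lysine 11. UBE2S (chr19:55399745-55407788, minus strand) read 136, 129.8, 133 and 135 TPM in RNA-seq and 309 and 347 TPM in PRO-seq, the highest nascent level of any member, and its log2 relative half-life was -0.66 ± 0.058 (SE) (adjusted p = 5.33e-12). RPL28 on the other strand overlaps 35.6% of its PRO-seq interval. UBE2C (chr20:45812644-45816952, plus strand) had only 2, 7, 1 and 5 RNA-seq counts, 0.802, 2.66, 0.597 and 2.60 TPM, whereas PRO-seq gave 30 and 40 counts, 34.3 and 44.9 TPM. Every RNA-seq value of UBE2C lay far under both PRO-seq values, and its 4 RNA-seq values differed more among themselves, relative to their mean, than those of any other tested member.

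The log2 relative half-life of UBE2C was -3.84 ± 0.37 (SE) (adjusted p = 5.13e-11, edgeR), 0.0698 times the median mRNA and above that of 1.60% of mRNAs, and ranged from -5.59 to -3.07 over the 8 combinations of libraries. The counted transcript holds 73.6% of the canonical exon bases, no matched TU overlaps it, 0.882% of its windows match elsewhere, and the part of each in the low RNA-seq count was not tested further. The annotation used here placed 88.1% of the counted transcripts, and whether one of the others overlaps UBE2C was not tested. CDC20, a partner of the same complex, read 157 TPM in RNA-seq and 143 TPM in PRO-seq.

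UBE2R2 and UBE2G1 build lysine-48 chains with cullin-RING ligases. UBE2R2 (chr9:33815168-33920399, plus strand) read 11.9, 12.1, 11.6 and 11.6 TPM in RNA-seq and 32.2 and 32.7 TPM in PRO-seq, and the groups were far apart, with a log2 relative half-life of -0.82 ± 0.069 (SE) (adjusted p = 1.98e-12). UBE2G1 (chr17:4269259-4366675, minus strand) read 29.4, 28.9, 30.7 and 29.3 TPM in RNA-seq and 48.7 and 52.7 TPM in PRO-seq, close to the ratio of the median mRNA. Its log2 relative half-life of -0.14 ± 0.057 (SE) was called below (adjusted p = 0.0191), but it was 0.08 against the median of all TUs and, with no TPM thresholds, 0.49 at a minimum of 1 summed count and -0.03 (adjusted p = 0.634) at a minimum of 10. The call was also lost with DESeq2 (adjusted p = 0.0808), without RNA-seq replicate 2 (0.0623) and without PRO-seq replicate 2 (0.161).

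The E2s of endoplasmic-reticulum-associated degradation, in which misfolded proteins are drawn from the ER and destroyed, lay on both sides of the median mRNA. UBE2G2 (chr21:44768580-44801820, minus strand), a soluble enzyme that builds lysine-48 chains, read 121, 139.9, 125 and 128 TPM in RNA-seq and 147 and 146 TPM in PRO-seq, and its log2 relative half-life was 0.45 ± 0.052 (SE) (adjusted p = 2.76e-09). UBE2J1 (chr6:89326625-89352722, minus strand) and UBE2J2 (chr1:1253912-1273854, minus strand) are anchored in the ER membrane. UBE2J1 read 23.7, 25.04, 24.9 and 24.04 TPM in RNA-seq and 36.7 and 35.1 TPM in PRO-seq and was not called, at 0.08 ± 0.083 (SE) (adjusted p = 0.347). It was called above against the median of all TUs (0.31, adjusted p = 9.53e-04) and, with no TPM thresholds, at a minimum of 1 summed count (0.71, adjusted p = 2.81e-15) and of 10 (0.20, adjusted p = 0.0306).

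UBE2J2 read 78.8, 73.8, 84.8 and 69.5 TPM in RNA-seq and 188 and 202 TPM in PRO-seq, the third highest nascent level of the members. On the log2 scale its relative half-life was -0.71 ± 0.063 (SE) (adjusted p = 6.03e-12). It had more RNA per length than UBE2J1 and a lower ratio. The counted transcript of UBE2J2 is one that the annotation classes as a target of nonsense-mediated decay, although it holds nearly all canonical exon bases.

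Among the E2s of chromatin and DNA repair, UBE2T lay above the median mRNA and UBE2A and UBE2B below. UBE2T (chr1:202331657-202341936, minus strand), the E2 of the Fanconi anemia pathway that acts with the ligase FANCL, read 175, 179.6, 174 and 188 TPM in RNA-seq and 114 and 109.9 TPM in PRO-seq. The test put its log2 relative half-life at 1.31 ± 0.071 (SE) (adjusted p = 3.48e-17), and it is the fourth gene called over 2-fold above, with an adjusted p of 3.80e-05 in that test. The counted transcript is classed as a retained-intron form. FANCL itself read 98.6 TPM in RNA-seq and 74.9 TPM in PRO-seq.

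UBE2A (chrX:119574563-119584423, plus strand) and UBE2B (chr5:134371569-134392108, plus strand) ubiquitylate histone H2B with RNF20 and RNF40, and the clamp PCNA with RAD18. UBE2A read 17.02, 15.3, 17.3 and 19.996 TPM in RNA-seq and 47.1 and 50.6 TPM in PRO-seq, and UBE2B read 20.9, 22.5, 24.1 and 21.4 TPM and 54.4 and 51.4 TPM. The PRO-seq values of both genes stood above their RNA-seq values, and the log2 relative half-life was -0.86 ± 0.12 (SE) for UBE2A (adjusted p = 5.13e-08) and -0.62 ± 0.092 (SE) for UBE2B (adjusted p = 2.94e-07), the latter 0.01 with no TPM thresholds and at least 1 summed count but -0.51, still called below, with at least 10. UBE2A was counted on a transcript with 26.97% of the canonical exon bases, and 66.6% of its exon bases overlap NKRF on the other strand.

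Of the E2s for other modifiers, UBE2M and UBE2L6 lay above the median mRNA. UBE2M (chr19:58555712-58558611, minus strand), an E2 of NEDD8 that works with RBX1 on cullins, read 143, 139, 134 and 136 TPM in RNA-seq and 95.7 and 132 TPM in PRO-seq. The span left for PRO-seq is short, so the PRO-seq values rest on 47 and 66 counts and differed by more than the RNA-seq values. For UBE2M the log2 relative half-life was 0.92 ± 0.13 (SE) (adjusted p = 1.45e-07). UBE2L6 (chr11:57551662-57567935, minus strand), the interferon-induced E2 of ISG15, read 15.04, 17.2, 13.9 and 12.9 TPM in RNA-seq and 11.6 and 9.95 TPM in PRO-seq, with a summed level just past the threshold, and its log2 relative half-life was 1.11 ± 0.17 (SE) (adjusted p = 8.44e-07).

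The other 6 tested members were 3 above and 3 below. UBE2L3 (chr22:21549447-21624034, plus strand), which serves HECT and RBR ligases that take ubiquitin onto their own cysteine, read 243, 243, 248 and 238 TPM in RNA-seq and 219 and 224 TPM in PRO-seq. Its libraries were the most alike of all tested members, and the log2 relative half-life was 0.77 ± 0.036 (SE) (adjusted p = 7.38e-19). The nascent level was high across its neighbourhood: the 17 tested mRNAs within 1 Mb on chromosome 22 had a median of 198 TPM in PRO-seq, against 43.0 TPM over the other 193 of that chromosome. The part of the region in the UBE2L3 level was not tested.

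UBE2H, the E2 of the CTLH ligase with its subunits MAEA and RMND5A, had 18.6 ± 0.943 TPM in RNA-seq (SD, n = 4) and 26.5 and 24.8 TPM in PRO-seq. Its log2 relative half-life of 0.17 ± 0.066 (SE) (adjusted p = 0.0156) lost its call with DESeq2 (adjusted p = 0.0718), at thresholds of 20 and 2 TPM (0.0558), with 500 bp removed for PRO-seq (0.0684), with the replicate number as a block (0.0572) and without PRO-seq replicate 2 (0.197). UBE2O, a large enzyme that acts as E2 and E3 in maturing red cells, had 20.5 ± 0.994 TPM in RNA-seq (SD, n = 4), 49.7 and 58.3 TPM in PRO-seq and a log2 relative half-life of -0.76 ± 0.066 (SE) (adjusted p = 4.59e-12). UBE2Z (chr17:48908407-48929056, plus strand), which takes ubiquitin from the E1 enzyme UBA6, read 41.7, 40.9, 45.1 and 42.5 TPM in RNA-seq and 110.0 and 115 TPM in PRO-seq, with every PRO-seq value above the RNA-seq values. For UBE2Z the log2 relative half-life was -0.77 ± 0.065 (SE) (adjusted p = 1.64e-12). Both UBE2O and UBE2Z had a lower ratio than UBE2H.

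UBE2Q1 (chr1:154548577-154558662, minus strand) and UBE2Q2 (chr15:75843447-75901078, plus strand) are long E2s whose partners are little studied. UBE2Q1 read 57.6, 53.9, 56.03 and 52.6 TPM in RNA-seq and 106 and 117 TPM in PRO-seq. UBE2Q2 read 36.8, 41.8, 38.3 and 33.6 TPM in RNA-seq and 54.7 and 50.2 TPM in PRO-seq. The log2 relative half-life was -0.39 ± 0.079 (SE) for UBE2Q1 (adjusted p = 4.10e-05), turning to 0.24 with no TPM thresholds and at least 1 summed count, staying below at -0.27 with at least 10, and losing its call against the median of all TUs (adjusted p = 0.0550), and 0.17 ± 0.071 (SE) for UBE2Q2 (adjusted p = 0.0296). The UBE2Q2 call was lost with DESeq2 (adjusted p = 0.108), at thresholds of 20 and 2 TPM (0.0955), with 500 bp removed for PRO-seq (0.0897), without RNA-seq replicate 2 (0.165) and without PRO-seq replicate 2 (0.350).

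Most neighbours in the order of relative half-life did not differ beyond their error. In 23 of 27 neighbouring pairs the difference was within 2 SE, and the exceptions were the steps from UBE2C to UBE2D4 (2.97), from UBE2Q1 to UBE2G1 (0.24), from UBE2G2 to UBE2L3 (0.32) and from UBE2T to UBE2D2 (1.32). In the order of RNA level, the RNA-seq values of 16 neighbouring pairs overlapped. For 25 of the 28 genes the log2 relative half-life kept its side of 0 in all 8 library combinations, and UBE2Q2 and UBE2J1 were among the 3 exceptions. The spread over libraries of the log2 ratio had a median SD of 0.11, from 0.03 in UBE2L3 to 1.16 in UBE2C.

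Paralogous enzymes were compared by the difference of their log2 ratios in 16 pairs named by sequence family or shared work, of which 14 could be compared and 12 had both genes past the thresholds. The test was a two-sided exact permutation of the assay labels over the 6 libraries, which allows 15 assignments and no p below 0.0667, so no pair could pass 0.05. In 11 of the 14 pairs p was 0.0667, or 0.0848 after adjustment over the 14. The difference kept its sign in all 8 library combinations in 12 pairs.

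**Figure D4:**
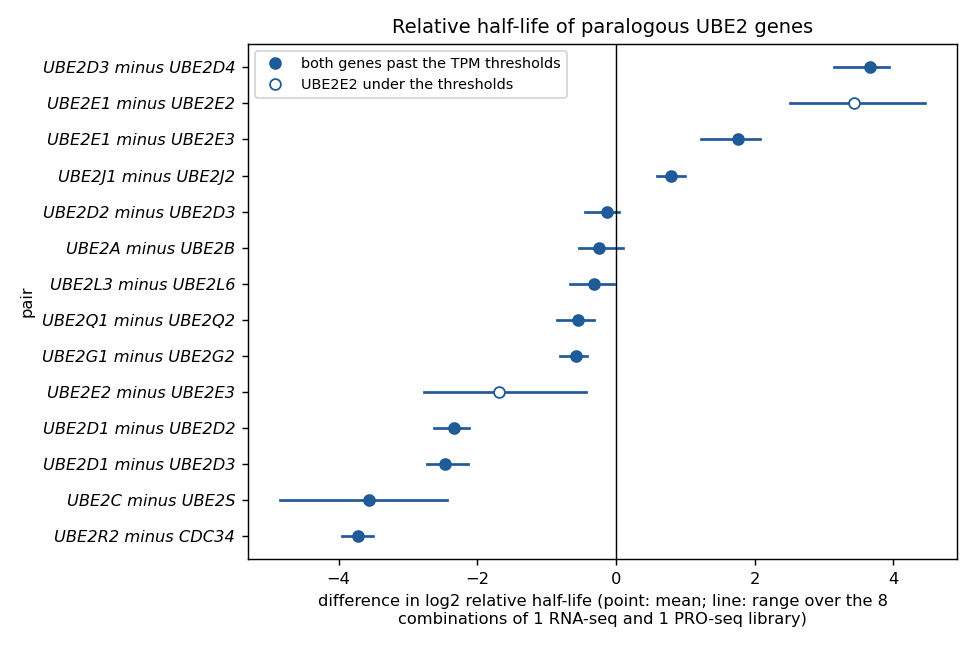
Difference in log2 relative half-life for the 14 pairs that could be compared, the first gene minus the second, as the mean (points) and the range over the 8 ways of joining 1 RNA-seq with 1 PRO-seq library (lines). UBE2D2 minus UBE2D3 and UBE2A minus UBE2B cross 0, and UBE2D3 minus UBE2D4 is the highest at 3.66.

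In the UBE2D family, UBE2D2 and UBE2D3 differed by -0.12 in log2 relative half-life (range -0.45 to 0.05, exact p = 0.533), so a difference larger than that range was not seen. UBE2D1 minus UBE2D2 was -2.34 (range -2.63 to -2.12) and UBE2D1 minus UBE2D3 was -2.46 (range -2.72 to -2.14), each with the smallest p the exact test allows. UBE2D1 was counted on 98.8% of its canonical exon bases, against 18.7% in UBE2D2 and 19.7% in UBE2D3. UBE2D3 minus UBE2D4 was 3.66 (range 3.15 to 3.94), from a difference of 6.27 in log2 RNA-seq TPM and of 2.61 in log2 PRO-seq TPM. The windows printed above thus come from genes with RNA levels from 4.71 to 351 TPM. Without TU length, on CPM, the signs for UBE2D1 turned, to 1.18 against UBE2D2 and 0.13 against UBE2D3, where the lengths of the counted exons and of the spans are the only terms left out.

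UBE2E1 minus UBE2E3 was 1.76 (range 1.23 to 2.07), with UBE2E1 counted on its canonical transcript in full and UBE2E3 on 17.4% of the canonical exon bases. UBE2E1 minus UBE2E2 was 3.44 (range 2.51 to 4.46) and UBE2E2 minus UBE2E3 was -1.68 (range -2.76 to -0.44), both on the few RNA-seq counts of UBE2E2. UBE2A minus UBE2B was -0.24 (range -0.53 to 0.11, exact p = 0.200) and UBE2L3 minus UBE2L6 was -0.31 (range -0.67 to -0.03, exact p = 0.133), although UBE2L3 stood 4.05 above UBE2L6 in log2 RNA-seq TPM and 4.36 above it in log2 PRO-seq TPM. The 2 genes of that pair thus differed in PRO-seq and RNA-seq level by like amounts.

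UBE2J1 minus UBE2J2 was 0.79 (range 0.59 to 1.00), UBE2G1 minus UBE2G2 was -0.58 (range -0.81 to -0.42) and UBE2Q1 minus UBE2Q2 was -0.54 (range -0.86 to -0.31). UBE2C minus UBE2S was -3.57 (range -4.85 to -2.44). UBE2R2 minus CDC34, the other E2 of the SCF ligases and outside the name rule, was -3.72 (range -3.95 to -3.50). CDC34 read 186, 185, 178 and 181 TPM in RNA-seq and 32.8 and 44.3 TPM in PRO-seq, close to UBE2R2 in nascent level and far above it in RNA.

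The 9 genes not tested were 4 that share most of their PRO-seq interval with other counted TUs on the same strand and 5 with few RNA-seq reads. UBE2F, the second E2 of NEDD8, read 24.7, 24.5, 20.1 and 24.6 TPM in RNA-seq and had 0 PRO-seq counts in both libraries, and UBE2W, which modifies the amino end of proteins, read 8.42, 7.26, 6.86 and 6.93 TPM in RNA-seq and had 2 and 0 PRO-seq counts. UBE2V1, the other partner of UBE2N, had 6, 5, 4 and 2 RNA-seq counts and 0 PRO-seq counts in both libraries. A count of 0 over both PRO-seq libraries allows up to 0.0768 TPM for UBE2F and 0.170 TPM for UBE2V1 as countable signal, for counting error only. These limits do not cover reads that may be lost where TUs overlap.

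Other counted TUs on the same strand overlap 99.9% of the PRO-seq interval of UBE2F (the read-through gene UBE2F-SCLY), 99.9% of that of UBE2W (a gene the annotation gives no symbol) and 100% of that of UBE2V1 (PEDS1-UBE2V1). In its default mode HTSeq counts a read that falls in 2 features for neither, but the sources read do not state the mode, and the part of the overlap in these zeros was not tested. UBE2F-SCLY, 85.4% overlapped by UBE2F and SCLY, had 7, 4, 5 and 2 RNA-seq counts and 272 and 292 PRO-seq counts. Exon bases, used for RNA-seq, were also shared on the same strand. The share was 81.5% in UBE2V1 and 93.5% in UBE2F-SCLY, against 19.4% in UBE2F and 5.63% in UBE2W. The part of this in the low RNA-seq counts of UBE2V1 and UBE2F-SCLY was not tested. None of the 28 tested genes had such an overlap on its own strand. UBE2F and UBE2M, and UBE2V1 and UBE2V2, are the 2 pairs that could not be compared.

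The other 5 had few RNA-seq reads. UBE2L5, a copy related to UBE2L3, had 3, 5, 2 and 11 RNA-seq counts and 0 in both PRO-seq libraries, which allows up to 1.12 TPM. UBE2NL, a single-exon relative of UBE2N without a cysteine codon after the tripeptide, had 3, 0, 0 and 0 RNA-seq counts and 1 and 0 PRO-seq counts. UBE2QL1 had 0 RNA-seq counts in all 4 libraries, which allows up to 0.0374 TPM, and 2 and 2 PRO-seq counts. UBE2U had 0, 2, 0 and 0 RNA-seq counts and 3 and 4 PRO-seq counts, and with UBE2E2 this accounts for the 9 genes not tested.

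The transcript used for counting was the MANE Select form in 17 of the 28 tested genes, against 58.2% of the tested mRNAs. It held under 90% of the canonical exon bases in 5 (UBE2D2, UBE2D3, UBE2E3, UBE2A and UBE2C), against 19.6% of mRNAs. Without those 5, an alternative added after seeing the data, 12 of 23 genes were above the median mRNA and 9 below. Across the 28, log2 relative half-life had a Spearman rho of -0.28 with exon bases, 0.30 with the span (0.02 over the 23 genes without those 5) and 0.05 with PRO-seq TPM, as descriptions, and over the mRNAs the first 2 were -0.33 and 0.03. RNA-seq TPM, which enters the ratio, had 0.657.

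Other genes of the pathway were read from the same test. Of 9 E1 subunits and enzymes, 8 lay above the median mRNA and none below, with a median of 1.37, from UBA7 at -0.35 (adjusted p = 0.147), the E1 of ISG15, to NAE1 at 4.31, a subunit of the E1 of NEDD8 counted on 32.3% of its canonical exon bases. UBA1, the main E1 of ubiquitin, stood at 1.37. Of 8 E2s and variants outside the name rule 6 lay above and 2 below, with a median of 1.18, from AKTIP at -0.79, a variant without the catalytic cysteine, to CDC34 at 2.88. As read above, 45.4% and 44.9% of mRNAs were called in these directions.

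Of 12 tested genes for ubiquitin and its relatives 11 lay above and 1 below, with a median of 1.76, from ATG12 at -0.75, the modifier of autophagy, to RPS27A at 3.70, which encodes ubiquitin fused to a ribosomal protein. NEDD8 and UBD were not tested, NEDD8 with 99.8% of its PRO-seq interval overlapped on its strand. Of 29 tested E3 partners of named E2s 15 lay above and 11 below, with a median of 0.11, from SYVN1 at -5.64, an ER ligase counted on 6.16% of its canonical exon bases, to ANAPC11 at 3.73, the RING subunit of the anaphase-promoting complex. Among all mRNAs tested, 45.4% were called above and 44.9% below. The E3 counts were near these shares and give no result about that list as a whole.

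The libraries held 5732780 to 9002746 counts on TUs in RNA-seq, and 6993816 and 7245632 in PRO-seq, and the 37 genes took 0.256% and 0.332% of the counts on matched TUs. RNA-seq replicates 1 and 3, and 2 and 4, were closer to each other (chi-square per degree of freedom 1.10 and 1.12) than the other RNA-seq pairs (1.77 to 2.24), where sampling alone gives 1, and with each close pair summed 15 members were above and 11 below. The 10 markers of K562 and erythroid cells summed to 11859 to 12764 TPM in the RNA-seq libraries. Of 10 markers of other cell types 7 were matched and summed to 228 to 234 TPM, nearly all from CD3D (109 TPM) and EPCAM (119.8 TPM), while the other 5 read at most 1.36 TPM.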

How the data were processed

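The authors deposited raw HTSeq counts per transcript for each library, without normalization. They had used Cutadapt for trimming, HISAT2 with GRCh38 for alignment and GENCODE genes for counting, where PRO-seq reads within 500 bp of either end of a TU were not counted. Versions of these tools, the strand setting and the HTSeq mode were not given in the sources used here. Rows that name no TU were left out, and they held 66.5% to 68.6% of RNA-seq records and 86.5% and 88.6% of PRO-seq records.

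Of 42371 listed Ensembl transcripts, 37339 (88.1%) were matched by identifier to GENCODE annotation lifted to GRCh37, which gave symbols, lengths and overlaps, whereas gene locations on GRCh38 are RefSeq's. No genome coordinates are in the files, and lengths can differ from those counted on. The 85 TUs spanning at most 1000 bp were left out.

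TPM used exon length for RNA-seq and the span minus 1000 bp for PRO-seq. With 500 bp removed instead, 13 members were called above the median mRNA and 11 below, and UBE2M, with a short span, stood at 1.20. Relative half-life was tested with edgeR 4.0.16 (R 4.3.3), with a quasi-likelihood test of the counts, TMM factors, length offsets, the median mRNA as reference and Benjamini-Hochberg adjustment over 9931 TUs. A 2-fold difference was tested with glmTreat, and DESeq2 1.42.0 was an alternative. SDs are over 4 RNA-seq libraries, and both values are given for PRO-seq. Paralogs were compared by an exact permutation test. Windows of 75 bases were matched to the GRCh37 genome. Intervals and floors (3 counts) cover counting error only, and PCR copies were not told apart, since the reads carry no molecular identifiers. On simulated counts of the assay comparison (9931 TUs), 91% of 200 TUs given a log2 change of 1 were recovered, with 6 false calls. The simulated libraries were independent and the other TUs had no difference, whereas in the data 40.4% of TUs were called above and 50.0% below. False calls from length, isoform or overlap were not simulated. Python 3.11.15 was used for other steps.

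The members, gene lists, pairs, roles and tests were chosen with earlier results of these data known. All members but 1, which is counted in the totals and not reported here by name or in the figures, are named, with values per library for the 5 highest and 5 lowest in log2 relative half-life, the 5 highest in RNA-seq TPM, the pairs and the members at or under the floor. Of each pathway list the counts and the highest and lowest members are given, and other genes of the lists were named for their link to a member. The alternatives were library totals, DESeq2, other thresholds, 500 bp removed, a pseudocount of 1 TPM, mean TPM, CPM without length, another reference, a replicate block, close pairs of libraries summed and each library left out. The alternative on canonical exon bases was added after seeing the data.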

Additional observations from a re-analysis of the deposited data

How the results depend on the processing

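Leaving out 1 library at a time, taking a lone PRO-seq library to vary as the RNA-seq libraries do, gave 13 to 15 members above the median mRNA and 10 or 11 below, and 3877 to 3999 and 4797 to 4956 of all TUs. The median log2 relative half-life of the members from TPM was 0.12 to 0.22 there, against 0.17 with all libraries. Testing a 2-fold difference left 4 members above and 1 below, and 2138 and 2903 of all TUs, since a larger difference is asked for. With at least 1 summed count and no TPM thresholds, 3 members were below, and 6549 and 7721 of 20652 TUs were called, because the reference then includes lowly transcribed mRNAs. UBE2G1 (0.49), UBE2Q1 (0.24) and UBE2B (0.0092) turned positive there, and UBE2G1 (0.082) also against the median of all TUs, which shifts values by 0.23.

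On CPM, without TU length, the members' median was -0.30. UBE2D3 (-0.35), UBE2D2 (-1.41), UBE2E3 (-3.96), UBE2K (-0.041), UBE2L3 (-0.64), UBE2D1 (-0.23), UBE2H (-1.18) and UBE2Q2 (-0.88) turned negative, and UBE2Q1 (1.33) and UBE2S (1.08) positive. The pairs UBE2D1 minus UBE2D2 (1.18), UBE2D1 minus UBE2D3 (0.13) and UBE2Q1 minus UBE2Q2 (2.21) turned as well. Length is the only term that differs. Over the 8 combinations of 1 library of each assay, UBE2A minus UBE2B turned positive in RNA-seq replicate 4 with PRO-seq replicate 1 (0.11), and UBE2D2 minus UBE2D3 in RNA-seq replicates 1, 2 and 3 with PRO-seq replicate 1 (0.00047, 0.046 and 0.035). Of the members' edgeR values over 16 alternatives, 390 kept their direction and call, 45 lost a call (21 of them in the 2-fold test), 5 gained one and 4 turned.

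The libraries share replicate numbers only (the correlation of same-numbered deviations was -0.01 over 9843 TUs, and nothing in the labels ties them). With the replicate number as a block, 14 members were above and 11 below, and 3913 and 4863 of all TUs. UBE2H lost its call there, and no other member's call changed. Depth limits UBE2C, with 15 RNA-seq counts in all, and UBE2M and UBE2L6, with 113 and 88 PRO-seq counts.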
